A study of Mus musculus with 2 samples.

Results

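The regions described here are the 1000 nt immediately upstream of annotated protein-coding gene starts, read on the strand opposite to the gene. For each of the 22367 protein-coding genes of GENCODE release M1, the window was set next to the 5′ end of the gene, and it was left out where it overlapped any other annotated gene on either strand. This left 16648 distinct windows belonging to 16665 genes, since 17 genes shared a window with another gene, and 5702 genes had no window. A read on the strand opposite to the gene is called divergent, and a read in the same window on the strand of the gene is called sense.

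The data were strand-specific sequencing reads of non-polyadenylated (NPA) RNA, with 1 library from mouse R1 male embryonic stem cells (ESCs) and 1 from ESC-derived neural progenitor cells (NPCs). The ESCs, of passage 18, were kept with leukemia inhibitory factor on mitomycin C treated mouse embryonic fibroblast feeders, and the NPCs were collected on day 7 of a differentiation that began with 4 days as embryoid bodies without that factor. Both RNAs went through the same removal of poly(A) RNA and ribosomal RNA, and no genetic change is stated for the line. The ESC library held 4271306 mapped reads and the NPC library 4399729, so that 1 read was worth 0.234 reads per 1000000 mapped reads (RPM) in ESCs and 0.227 RPM in NPCs. With 1 library per cell type there was no replicate check, and every interval below is a 95% interval that covers counting error only and compares the 2 libraries rather than the cell types.

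Promoters of mammalian genes often start transcription in both directions. The RNA made away from the gene, known as upstream antisense RNA or promoter upstream transcript, is usually short and is removed quickly by the nuclear exosome, in part because polyadenylation signals lie early in it while 5′ splice sites, which protect the RNA on the gene side, are scarce. Such RNA has been seen most often at promoters within CpG islands.

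Stretches of 5 windows are shown first, as examples of windows described further on. Each stretch is 150 nt of the NCBIM37 (mm9) genome, written 5′ to 3′ on the divergent strand, and the capitals mark the 48 nt that begin at the read start used most often in that window. The stretches lie outside annotated genes. Etnk1, from chr6:143114800-143114949 on the minus strand, and Klf9, from chr19:23214761-23214910 on the minus strand, had more divergent reads in ESCs. Gdpd5, from chr7:106529649-106529798 on the minus strand, had more in NPCs, and Il17d, from chr14:58143385-58143534 on the minus strand, had reads in both libraries while its exons had almost none and was chosen after its values were seen. Mdm4, from chr1:134922888-134923037 on the plus strand, is shown because its reads could not be assigned to this locus alone, and its stretch runs past the far edge of the window.
Etnk1: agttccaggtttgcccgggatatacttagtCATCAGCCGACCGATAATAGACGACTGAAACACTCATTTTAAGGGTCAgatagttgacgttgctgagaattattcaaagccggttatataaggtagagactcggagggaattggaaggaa
Klf9: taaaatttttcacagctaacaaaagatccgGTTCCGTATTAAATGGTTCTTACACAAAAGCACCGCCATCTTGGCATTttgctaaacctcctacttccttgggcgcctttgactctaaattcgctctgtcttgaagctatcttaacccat
Gdpd5: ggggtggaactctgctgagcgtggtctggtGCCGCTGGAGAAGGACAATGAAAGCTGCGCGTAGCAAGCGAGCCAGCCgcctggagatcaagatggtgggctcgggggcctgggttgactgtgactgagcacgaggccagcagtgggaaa
Il17d: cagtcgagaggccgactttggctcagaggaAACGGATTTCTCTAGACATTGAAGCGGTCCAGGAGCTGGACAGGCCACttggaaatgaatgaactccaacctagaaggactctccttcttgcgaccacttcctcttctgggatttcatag
Mdm4: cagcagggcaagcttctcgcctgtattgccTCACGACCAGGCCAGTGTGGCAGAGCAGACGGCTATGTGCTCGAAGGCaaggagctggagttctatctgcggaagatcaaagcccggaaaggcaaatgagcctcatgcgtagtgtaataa

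The marked start lay 831 nt from the gene start of Etnk1 and held 13 of its 48 pooled divergent reads. It lay 836 nt away for Klf9, with 4 of 24 reads, 291 nt away for Gdpd5, with 4 of 22, and 162 nt away for Il17d, with 8 of 27. In these windows most reads therefore began elsewhere, and no single position made up the signal.

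The 2 cell types were checked against marker genes before the windows were compared. Of 10 ESC markers, all 10 had lower exon RPM in NPCs and 8 were more than 2-fold lower, against 12.8% of the 14859 genes with at least 10 exon reads in the pooled libraries. Their summed level went from 2411 RPM in ESCs to 677 RPM in NPCs, with Pou5f1, a core pluripotency factor, the most abundant in both. Of 10 neural progenitor markers, 9 were in the annotation, and their summed level was 72.1 RPM in ESCs and 76.8 RPM in NPCs. Of the 6 with at least 10 pooled reads, 3 had a log2 ratio above 0 and 3 below 0, 2 were more than 2-fold higher in NPCs and none more than 2-fold higher in ESCs. Those 2 were Zic1, a zinc-finger factor, with 1 and 22 exon reads, and Pax6, a homeobox factor, with 1 and 12. Nes, an intermediate filament gene, had 66 and 121. Msi1, an RNA-binding protein, had 99 exon reads in ESCs and 60 in NPCs, a ratio of 0.588 (0.420 to 0.819). Tubb3, a neuronal tubulin, had 109 and 87 and Pou3f1 32 and 27, while Fabp7 and Sox3 were at 0 in ESCs and had 2 and 5 reads in NPCs. All 10 markers of extraembryonic endoderm were more than 2-fold higher in NPCs, against 24.6% of all genes, and their summed level went from 671 RPM to 13070 RPM, led in NPCs by the basement membrane collagen Col4a1. Fibroblast markers, which the feeder cells could contribute, summed to 469 RPM in ESCs and 273 RPM in NPCs, of which Fn1 alone was 425 and 213 RPM, and 5 of the 7 with at least 10 pooled reads had higher RPM in NPCs, as did 9336 of the 14859 genes with as many reads. Among these Col1a2, a fibrillar collagen, had 51 and 165 exon reads, while Thy1, a surface protein also found on other cells, had 79 and 12 and was higher in ESCs, and Lum had 0 reads in either library. The NPC library is therefore called by its label, with endoderm markers far above neural ones, and the part of other cell types in the differences below was not tested. In bulk RNA, fewer cells of a type and less RNA per cell cannot be told apart.

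Divergent reads were a small part of both libraries and were spread over many promoters. The ESC library held 4725 divergent reads (95% Poisson interval 4591 to 4862), or 1106 RPM, and the NPC library held 3804 (3684 to 3927), or 865 RPM. At least 1 divergent read fell in 2241 windows in ESCs, 13.5% of all (Clopper-Pearson interval 12.9 to 14.0), and in 1945 windows in NPCs, 11.7% (11.2 to 12.2). Most of these windows were sparsely covered, since 1312 of them in ESCs and 1213 in NPCs held exactly 1 read, 459 and 336 held 3 or more, and 37 and 20 held 10 or more. A window without a read was taken to allow up to 3 reads, or 0.702 RPM in ESCs and 0.682 RPM in NPCs. The 95% Poisson interval for a count of 0 reaches slightly higher, to 3.69 reads.

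The divergent reads were spread over many positions. They began at 3915 different positions in ESCs and 3063 in NPCs, with 1.21 and 1.24 reads per position, and the 10 windows with most reads held 7.39% and 10.3% of them. Their sequence occurred exactly 1 time in the genome for 90.9% of the divergent reads in ESCs and 88.3% in NPCs. Reads from the wrong strand of a strand-specific library would also land here. Over the exons of 16210 coding genes with no gene opposite, antisense reads were 0.304% of the total in ESCs and 0.222% in NPCs, and that share of the sense reads in the windows would come to 29.8 reads in ESCs and 29.8 in NPCs.

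On the sense strand the same windows held more reads, 9797 in ESCs and 13419 in NPCs, but these were concentrated in a few places. The windows of Gm10222 and Gm10925, neighbouring predicted genes at chr1:24619540-24620539 and chr1:24621628-24622627, held 2310 and 1687 sense reads in ESCs and 4767 and 3331 in NPCs, and were picked after these values were seen. Of those, 1464 and 1653 reads in ESCs, and 2962 and 3276 in NPCs, had a sequence that also lies on the mitochondrial chromosome. With these windows included, the divergent strand took 32.5% of the window reads in ESCs (31.8 to 33.3) and 22.1% in NPCs (21.5 to 22.7). Without them it took 44.6% (43.6 to 45.5) and 41.5% (40.5 to 42.5). Without the 10 windows with most sense reads, a choice that can only raise the share, it took 51.6% (50.6 to 52.7) and 50.7% (49.5 to 51.8), and the intervals of the libraries overlapped. Counted by windows, divergent reads outnumbered sense reads in 1953 windows in ESCs and the reverse held in 1238, and the corresponding numbers in NPCs were 1755 and 1190.

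Windows with divergent reads were fewer with distance from the gene start, but the 5′ ends did not gather at the start itself. The RNA was fragmented before adaptors were ligated. A 5′ end of a read, or read start, is thus the end of a fragment and need not be where transcription began. Among 13908 windows with no other gene within 5000 nt, and without the window of Gm10925 described above, the share of windows with a divergent read was lower at each step outwards in ESCs, from 12.9% in the first 1000 nt to 7.58%, 4.88%, 3.45% and 2.90% in the next 4 stretches of that length. The same shares in NPCs were 11.2%, 6.92%, 4.41%, 3.49% and 3.01%. With each start position counted as 1, the first 1000 nt held 4.48 times as many starts as the stretch from 4000 to 5000 nt in ESCs (4.12 to 4.87) and 3.46 times as many in NPCs (3.18 to 3.77). All divergent reads followed this less closely, with 3782, 2023, 1376, 782 and 1538 reads in the 5 stretches in ESCs and 3031, 1937, 1279, 847 and 1360 in NPCs, so that the first held 2.46 and 2.23 times as many as the last. The sense strand showed no such slope beyond the first stretch, with reads in 7.85% of windows in ESCs there and in 3.39%, 3.07%, 3.58% and 3.70% further out.

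Within the windows the median distance of a divergent 5′ end from the gene start was 498 nt in ESCs and 485 nt in NPCs, and the first 100 nt held 4.72% and 4.55% of the reads. Distinct starts in ESCs numbered 28.98 per 1000 windows from 201 to 300 nt (26.2 to 31.9) and 28.6 from 301 to 400 nt (25.9 to 31.6), against 9.92 in the first 100 nt (8.34 to 11.7). In NPCs the density at 201 to 300 nt was 19.99 per 1000 windows (17.7 to 22.5), below that in ESCs, and it was 20.6 in each of the next 2 stretches of 100 nt. Sense starts were placed in the opposite way, with 61.6 per 1000 windows in the first 100 nt in ESCs and 12.9 at 201 to 300 nt. Sense reads that close to the annotated start cannot be told apart from transcripts of the gene that begin slightly earlier than annotated.

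**Figure D1:**
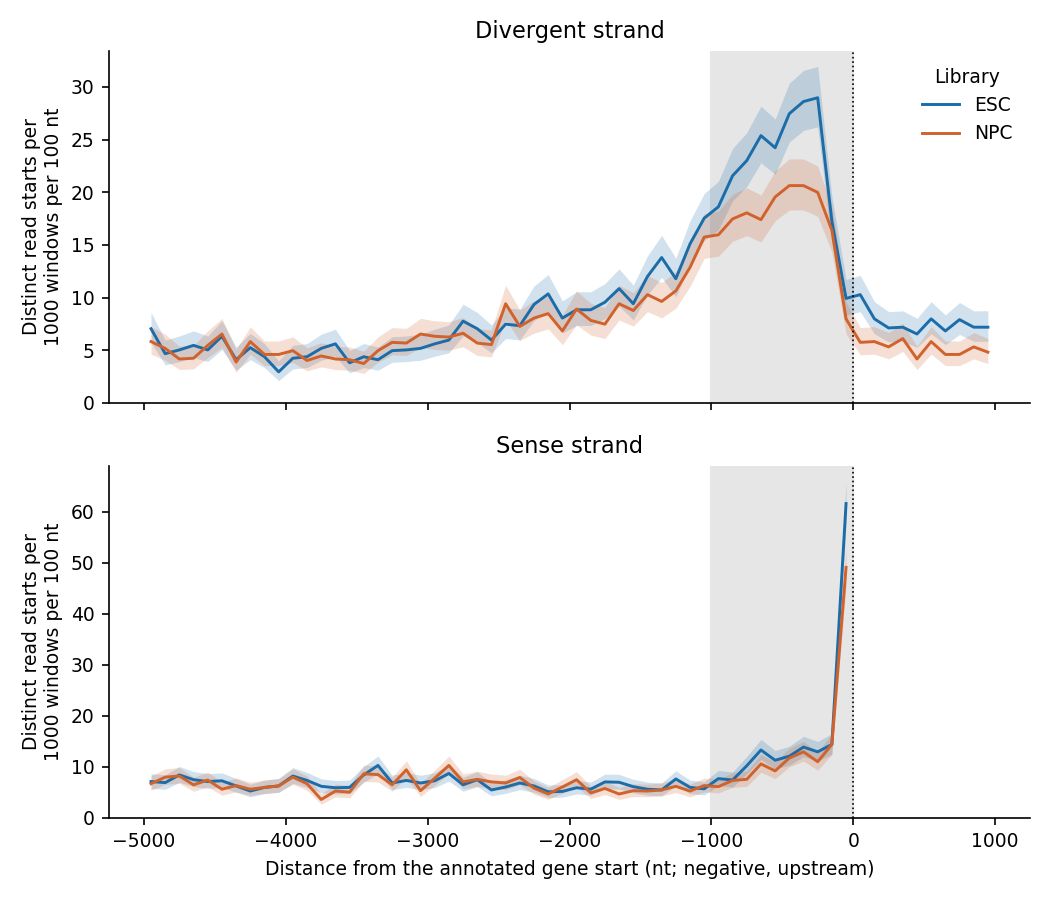
Distinct read starts per 1000 windows in steps of 100 nt (vertical axes, linear and different for the panels) against the distance from the annotated gene start in nt, with the windows shaded, for the divergent strand above and the sense strand below in 13908 windows with no other gene within 5000 nt; lines are the ESC and NPC libraries and bands the 95% Poisson intervals. At 201 to 300 nt divergent starts stand at 28.98 per 1000 windows in ESCs and 19.99 in NPCs, and they are fewer beyond the window, whereas sense starts are concentrated in the first 100 nt.

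Divergent reads were found more often upstream of genes with more exon reads. In ESCs, 1.94% of the windows of genes without an exon read had a divergent read, against 7.35% for genes with 1 to 9 exon reads, 18.8% for 10 to 99, 30.5% for 100 to under 1000 and 47.9% (41.4 to 54.4) for 1000 or more. The shares in NPCs over the same bins were 1.68%, 4.74%, 14.6%, 26.4% and 37.9% (32.8 to 43.1). The intervals of the 2 libraries did not overlap in the bins of 1 to 9, 10 to 99 and 100 to under 1000 exon reads. When exon reads were taken per length, genes with over 100 reads per 1000 nt of exon had a divergent read in 36.1% of windows in ESCs and 31.9% in NPCs.

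The increase was far less than proportional. For genes with 1 to 9 exon reads there were 34.2 divergent reads per 1000 exon reads in ESCs and 21.3 in NPCs, and for genes with 1000 or more there were 0.493 and 0.351. The bins were cut on the divisor of this ratio, and no background was subtracted. Genes without an exon read still had 42.1 divergent reads per 1000 windows in ESCs and 54.7 in NPCs, against 121 and 70.5 for 1 to 9 exon reads. The part of background in the ratio at low counts was not tested. Over all windows the ratio was 2.78 divergent reads per 1000 exon reads in ESCs and 1.75 in NPCs. The exon counts are of RNA that stayed in the NPA fraction after removal of poly(A) RNA, so they are not a measure of total mRNA.

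The base composition of the promoter separated the windows as well. A promoter was called CpG-rich where the 500 nt on either side of the gene start had a G+C content of at least 55% and an observed-to-expected CpG ratio of at least 0.6. The 5697 CpG-rich windows had a divergent read in 27.7% of cases in ESCs and 23.6% in NPCs, and they held 73.0% and 71.0% of the divergent reads. The other 10951 windows had one in 6.07% and 5.48%. The gap was also present among genes with 10 to under 1000 exon reads. Among genes with 10 to 99 exon reads, 25.1% of CpG-rich windows (23.3 to 26.98) and 12.2% of the others (10.8 to 13.6) had a divergent read in ESCs, and 18.6% (16.8 to 20.5) and 11.1% (9.69 to 12.5) in NPCs. Among genes with 100 to under 1000 exon reads the shares were 36.1% and 17.4% in ESCs and 31.0% and 15.9% in NPCs. Among genes with 0 exon reads they were 7.14% and 1.65% in ESCs and 5.63% and 1.49% in NPCs. Among genes with 1 to 9 exon reads they were 11.6% (9.32 to 14.2) and 5.91% (4.93 to 7.01) in ESCs, and 6.06% (4.36 to 8.16) and 4.31% (3.48 to 5.28) in NPCs, where the intervals overlapped. The libraries differed beyond the counting intervals for CpG-rich windows in the bins of 1 to 9, of 10 to 99 and of 100 to under 1000 reads, and their intervals overlapped for the others in all 3.

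**Figure D2:**
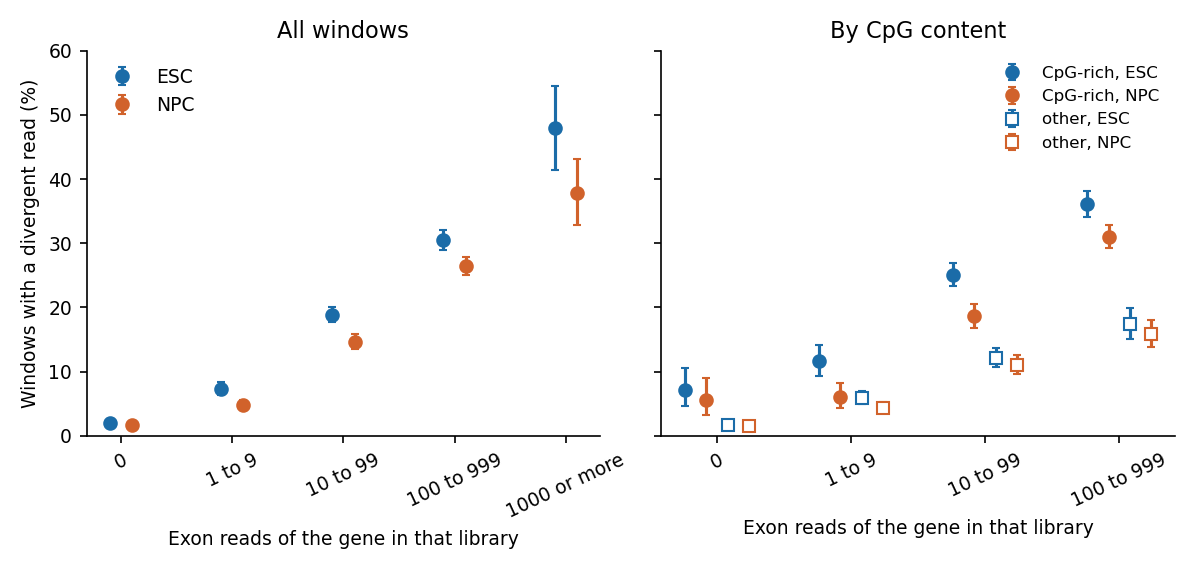
Share of windows with at least 1 divergent read (vertical axis, percent) by the number of exon reads of the gene in the same library (horizontal axis), for all windows at the left and split into CpG-rich and other promoters at the right; points are the ESC and NPC libraries and bars the 95% Clopper-Pearson intervals. The share rises from 1.94% to 47.9% in ESCs and from 1.68% to 37.9% in NPCs, and the points of CpG-rich windows lie above those of the others in every bin.

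Sequence elements tied to the fate of such RNA were counted in the windows. The letters GGTAAG, the core of a strong 5′ splice site, occurred on the divergent strand of 13.4% of the windows and on the gene strand in the first 1000 nt of 27.6% of the same genes. AATAAA, the polyadenylation signal, had the reverse distribution, being present in 44.5% of the divergent windows and 23.7% of the first 1000 nt of the genes. In CpG-rich windows the shares were 10.6% and 23.3% for GGTAAG and 37.4% and 12.8% for AATAAA. The letters TATAAA, those of a TATA box, were uneven in the same direction as AATAAA. They occurred in 31.3% of the divergent windows and 17.2% of the first 1000 nt of the genes, and in 21.4% and 8.86% for CpG-rich windows. The 2 stretches were not matched for base composition, and its part in these shares was not tested. Each strand was searched only in its own direction. GGTAAG cannot overlap the others, while TATAAA and AATAAA can share up to 2 letters.

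Among CpG-rich windows, AATAAA was present in 31.0% of the 686 with 3 or more pooled divergent reads (27.6 to 34.7), in 37.8% of the 1541 with 1 or 2 reads (35.4 to 40.3) and in 38.4% of the 3470 without a read (36.8 to 40.0). The share with GGTAAG was 10.5%, 10.9% and 10.4% in the same order. TATAAA was present in 18.95%, 21.8% and 21.8%, with overlapping intervals. These counts are of letters in a fixed stretch, and a match is not a used site.

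Divergent reads were fewer in the NPC library, and exon reads of the same genes were more abundant. The NPC to ESC ratio of summed RPM was 0.782 for divergent reads (0.749 to 0.816), a log2 value of -0.36, and 1.24 for the exons of the same genes. The median log2 ratio of the 14859 genes with at least 10 exon reads was 0.34, so that relative to the median gene the divergent reads were at -0.69 on the log2 scale. With each start position counted as 1 the ratio was 0.760 (0.724 to 0.797). Reads in introns of coding genes had a ratio of 1.11 (1.10 to 1.11).

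The lower level in NPCs was not particular to the divergent strand. Sense reads in the windows, without those of Gm10222 and Gm10925, had a ratio of 0.891 (0.858 to 0.925). In the 13908 windows with no other gene within 5000 nt, the sense ratio was 0.734 (0.693 to 0.776) in the first 500 nt and 0.734 (0.675 to 0.798) in the next 500 nt, and the divergent ratio was 0.790 (0.738 to 0.845) and 0.766 (0.716 to 0.821). Between 4000 and 5000 nt upstream the ratio was 0.858 on the divergent strand (0.797 to 0.924) and 1.03 on the sense strand (0.958 to 1.12). Of those divergent reads, 609 in ESCs and 530 in NPCs lay in the last 100 nt. With each start position counted as 1, the stretch held 699 and 700 divergent starts, or 164 and 159 RPM, and 946 and 925 sense starts, or 221 and 210 RPM. By the mean exon RPM of the gene, the divergent ratio was 1.05 (0.915 to 1.21) for genes below 1 RPM, 0.851 (0.763 to 0.9503) from 1 to 10, 0.776 (0.732 to 0.823) from 10 to 100 and 0.651 (0.592 to 0.716) above 100. The value of the class below 1 RPM rested on 2 windows, since without those of BC107364 and Gm10874 it held 340 and 286 reads and the ratio was 0.817 (0.695 to 0.959). The genes above 100 RPM had the lowest ratio with or without them.

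The change in divergent reads was then set against the change of the gene, using genes with at least 10 pooled exon reads. This split was chosen after the totals had been seen. Where exons were more than 2-fold higher in ESCs (1091 genes), divergent reads went from 418 to 196, a ratio of 0.455 (0.382 to 0.541). Where exons stayed within 2-fold (5421 genes), they went from 2880 to 2170, a ratio of 0.731 (0.692 to 0.774). Where exons were more than 2-fold higher in NPCs (2334 genes), there were 1022 and 997 reads, a ratio of 0.947 (0.867 to 1.03), while the summed exon RPM of these genes was 3.23 times as high in NPCs. The pooled divergent ratios of the 3 classes had the same order as those of the exons, but window by window the relation was weak, with a Spearman rho of 0.16 between the log2 ratios over 86 windows with at least 10 divergent and 10 exon reads from the same 2 libraries. In each class except the first the divergent ratio lay below the exon ratio, which was 0.362, 1.09 and 3.23. The classes were cut on the exon ratio, so its value in the first and last class was set by that choice, and the comparison there decides nothing. In a closer match of 1599 genes with at least 50 exon reads and exon RPM within 1.25-fold, divergent reads were 984 and 688, a ratio of 0.679 (0.615 to 0.749).

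**Figure D3:**
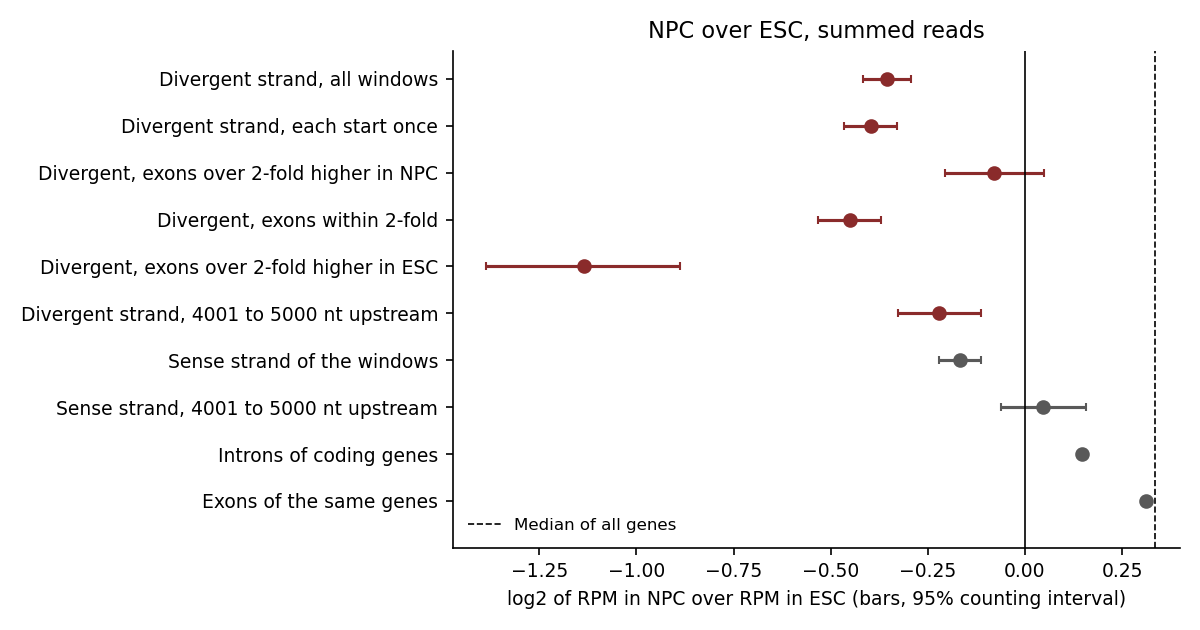
log2 ratio of NPC to ESC RPM of summed reads (horizontal axis) for divergent reads in several sets of windows (dark red) and for sense, intron and exon reads (grey), with bars for the 95% counting interval, a solid line at equal RPM and a dashed line at the median of all genes, 0.34. Divergent reads of all windows lie at -0.36, below equal RPM, and the exons of the same genes lie above it.

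Per window, only 94 of 16648 had at least 10 pooled divergent reads, enough for a ratio, and 1 read was added to each count before the log2 ratio was taken. Of these, 36 (38.3%) were more than 2-fold higher in ESCs and 9 (9.57%) more than 2-fold higher in NPCs. The same call over exons of 12711 coding genes was met by 1479 (11.6%) in ESCs and 3335 (26.2%) in NPCs, and over the sense strand of 156 windows by 46 (29.5%) and 27 (17.3%). The median log2 ratio of the 94 windows was -0.49, with 61 below 0 and 33 above, against 0.34 over all genes. At such counts counting error alone can move a window past 2-fold, so the windows below are given with their reads. In 86 of the 94 windows the gene also had at least 10 exon reads, and 63 of these had a lower log2 ratio in the window than in the exons, with a median difference of -1.28.

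The windows with reads were in part the same in the libraries. Of the windows with at least 1 divergent read, 897 were shared, 40.0% of those in ESCs and 46.1% of those in NPCs. At 5 or more reads in each library 47 were shared, 27.5% of those in ESCs and 41.6% of those in NPCs. Of the 171 windows with 5 or more reads in ESCs 28 (16.4%) had none in NPCs, and of the 113 in NPCs 23 (20.4%) had none in ESCs. On the sense strand of the same windows, without those of Gm10222 and Gm10925, 614 windows with at least 1 read were shared, 39.4% of those in ESCs and 44.6% of those in NPCs, and 104 with 5 or more, 52.8% and 63.8%. At 5 or more reads, 12.7% of the sense windows of ESCs had none in NPCs, and 7.98% of those of NPCs had none in ESCs. For the exons of the genes of the windows, 93.2% of those in ESCs and 92.1% of those in NPCs were shared at that count. Of these exons 1.57% and 2.21% had no read in the other library. Levels differ between the strands and from those of exons, and what such sparse counts would give by sampling alone was not tested.

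The windows with the most reads included several whose reads cannot be placed with certainty. The window of Mdm4, a negative regulator of p53, held 62 reads in ESCs and 57 in NPCs, close to its far edge, but only 2 and 0 of them had a sequence found 1 time in the genome. The same held for Gm10874, with 36 and 53 reads of which 0 and 1 were unique, for BC107364, with 18 and 88 reads of which none was unique, and for Gm10222, with 49 and 21 reads of which 2 and 0 were unique and 47 and 20 matched the mitochondrial chromosome. Since the authors kept reads with several possible placements, the counts of these windows are uncertain. At Gm5551, 34 of 47 reads in ESCs and 53 of 73 in NPCs began at the same position, 217 nt upstream, and 34 and 53 of its reads had a unique sequence.

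Among the windows with at least 20 divergent reads in a library, Etnk1 had the most uneven counts. Its gene, on chr6:143115750-143157062 on the plus strand, encodes a kinase for ethanolamine in phospholipid synthesis. The window held 46 divergent reads in ESCs, at 26 start positions, and 2 in NPCs, whereas the exons had 748 and 725 reads. The divergent level was 23.7 times as high in ESCs (6.20 to 201), while the exon log2 ratio was -0.09. The window was named for this change and reached 20 reads in ESCs only, so the interval describes the counts and tests no difference. The sense strand of the window had 9 reads in ESCs and 0 in NPCs.

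Klf9, which encodes a zinc-finger transcription factor of the Krüppel-like family, showed a smaller contrast of the same direction. Its window held 20 reads in ESCs and 4 in NPCs, 5.15 times as high in ESCs (1.73 to 20.7), and its exons had 669 and 475 reads. This window too was named for its change and reached 20 reads in ESCs only, so the interval tests no difference. At Klf6, of the same family, the window and the gene differed in opposite directions. Its window held 18 reads in ESCs and 7 in NPCs, a log2 ratio of -1.29, and its exons had 375 and 1590 reads, a log2 ratio of 2.04. Klf7 had 12 and 6 window reads with 44 and 92 exon reads. Klf6 and Klf7 were picked after the values were seen, from the 30 windows with most reads.

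Gdpd5, which encodes a glycerophosphodiester phosphodiesterase, had the most uneven counts in the other direction among windows with at least 20 divergent reads in a library. Its window held 1 read in ESCs and 21 in NPCs, at 14 positions, 20.4 times as high in NPCs (3.28 to 843). It was named for this change and reached 20 reads in NPCs only, so the interval tests no difference. The exons of Gdpd5 were higher in NPCs as well, with 28 and 236 reads. The window log2 ratio was 3.42 and that of the exons 2.99. Blzf1, a Golgi protein gene, had 4 and 19 divergent reads and 73 and 182 exon reads, although 10 of the 19 began at 1 position. Eef2k, the kinase of a translation elongation factor, had 4 and 19 divergent reads, 14 of the 19 at 1 position, with 79 and 43 exon reads. Blzf1 and Eef2k were also picked after the values were seen.

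A few windows had divergent reads although the annotated gene had almost none. The window of Il17d, a cytokine gene, held 13 reads in ESCs and 14 in NPCs, all of unique sequence and at 8 and 9 positions, and its exons had 0 and 5 reads. It was picked after the values were seen, from the 30 windows with most reads. Gm5901, a predicted gene, had 20 and 9 divergent reads of unique sequence and 0 exon reads in both libraries. At Ctnna3, a catenin of cell junctions, 8 of 9 reads in ESCs and 15 of 19 in NPCs began 539 nt upstream, and its exons had 0 reads. The annotation holds no gene over these windows, and the data do not tie their reads to the promoter of the named gene. The window of 8030474K03Rik held 33 and 22 reads of unique sequence, but unlike the genes above its exons had reads, 72 and 54. There the start of Gm4779 lay 1348 nt away in the head-to-head orientation.

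Other windows among the 30 with most reads, chosen after the values were seen, are given by their reads in ESCs and NPCs. Zbtb2, which encodes a zinc-finger protein, had 10 and 14 reads at 9 and 13 positions. Trp53inp1 and Bbc3, both targets of p53, had 14 and 10 reads and 12 and 9 reads. Smg5, a factor of nonsense-mediated decay, had 16 and 8, Anln, an actin-binding protein of cytokinesis, 15 and 5, an NPC to ESC ratio of 0.324 (0.0920 to 0.937), and Etf1, the translation release factor, 14 and 10. At Ilf2, a double-stranded RNA-binding protein, 14 of 16 reads in ESCs and 7 of 12 in NPCs began at 1 position.

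**Figure D4:**
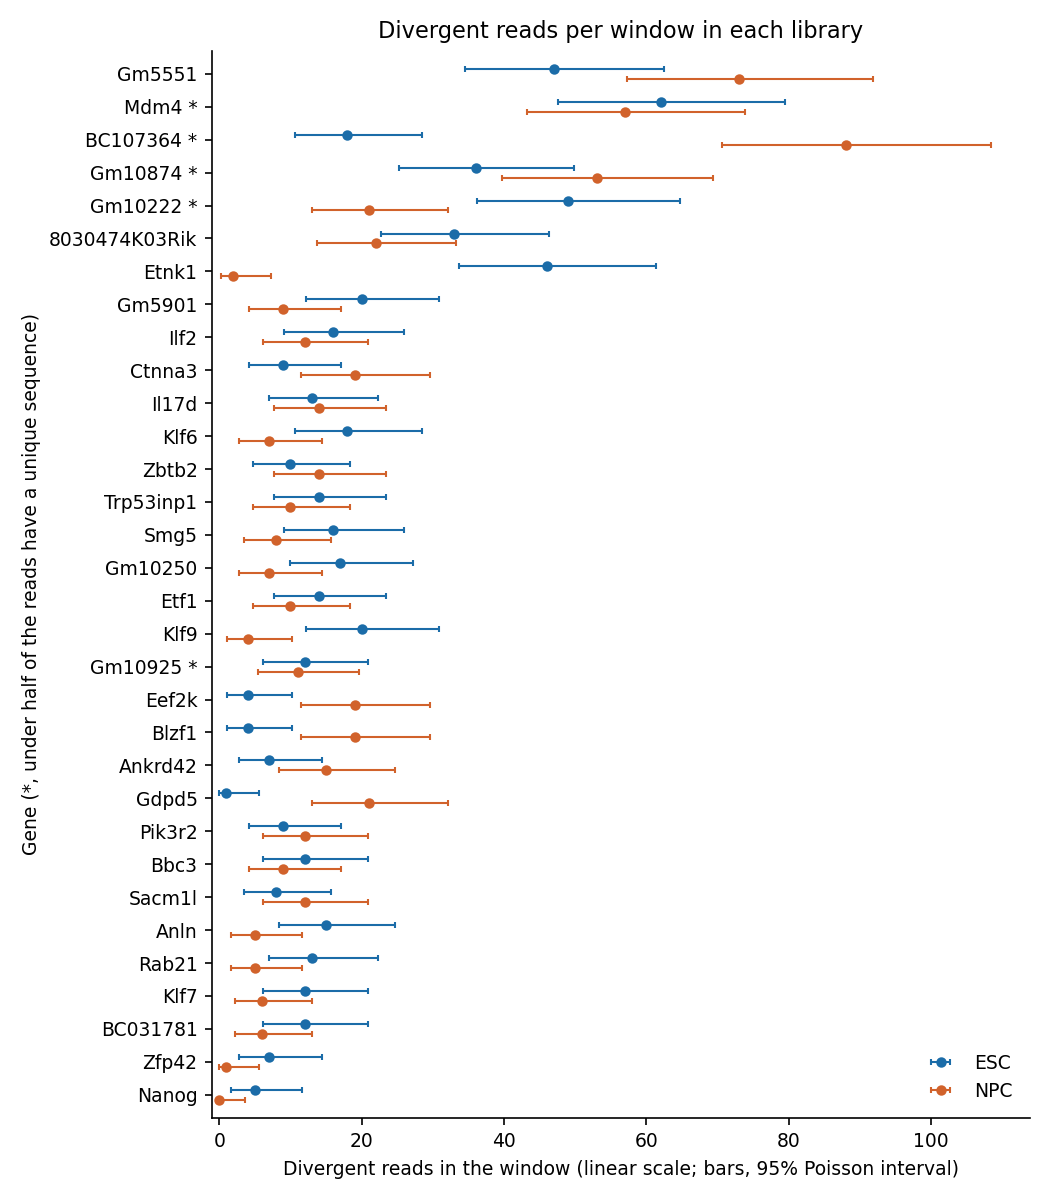
Divergent reads per window (horizontal axis, linear, number of reads) for the named windows and the 30 with most reads, with points for the ESC and NPC libraries and bars for the 95% Poisson interval; an asterisk marks windows in which under 50% of the reads have a unique sequence. Etnk1 (46 and 2 reads) and Gdpd5 (1 and 21), both named for their large changes, are windows of unique sequence in which the intervals lie far apart, and for most others the intervals overlap.

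At the genes of pluripotency factors, divergent reads were few, and their sum was lower in NPCs along with that of the exons. Of the 10 ESC markers 9 had a window, and these held 19 divergent reads in 7 windows in ESCs and 2 in 2 windows in NPCs. Over all windows 13.5% and 11.7% had a divergent read, and in ESCs 30.5% did for genes with 100 to under 1000 exon reads and 47.9% for genes with 1000 or more. In NPCs the shares of these bins were 26.4% and 37.9%. Zfp42, also called Rex1, had 7 and 1, and Nanog had 5 and 0, with 707 and 289 and with 1576 and 601 exon reads. The interval of the NPC to ESC ratio of divergent reads reached 1.08 for Zfp42 and 1.06 for Nanog, so both included equal levels. Klf4 had 3 and 1, and Pou5f1 had 1 and 0 with 2623 and 724 exon reads. Among the extraembryonic endoderm markers, whose exons were much higher in NPCs, the 7 windows held 1 divergent read in ESCs and 1 in NPCs, both at Sox17. The exons of Lama1 had 10346 reads and those of Sparc 13828 in NPCs, without a divergent read at either gene. Most NPC windows of genes with 1000 or more exon reads had none either, since 134 of 354 (37.9%) had one. The 4 windows of neural markers held 0 and 1 reads, and the 9 of fibroblast markers 1 and 0.

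Genes whose products take part in the termination, processing or decay of divergent RNA, or in its protection from early termination, were examined on their own. The list had 34 genes of the exosome, the NEXT complex and its partners, the cap-binding complex, U1 snRNP, Integrator, the cleavage and polyadenylation machinery, and related factors, of which 31 were in the annotation. Of these, 6 were more than 2-fold higher in NPCs and 2 more than 2-fold higher in ESCs, against 24.6% and 12.8% of all genes, and the median log2 ratio was 0.51, or 0.17 above the median gene. Of the 10 exosome genes in the annotation, 9 had a log2 ratio above 0, as did 9336 of 14859 genes, with 35 and 85 exon reads for Exosc4 and 92 and 191 for the catalytic subunit Exosc10, and Exosc5 was the exception with 99 and 42. Of the NEXT complex, the helicase Skiv2l2 had 222 and 552 reads, Rbm7 had 178 and 305, and Zcchc8 had 129 and 117, a log2 ratio of -0.18. Among the genes of U1 snRNP, which binds 5′ splice sites and holds back early termination, Snrnp70 had 438 and 258 reads, Snrpa 254 and 123 and Snrpc 42 and 23. Of this list 14 genes had a window, with 10 divergent reads in ESCs and 15 in NPCs, of which Cpsf2 alone held 3 and 7. Exon reads in NPA RNA do not give the amount of these proteins.

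The rule on neighbouring genes left a margin that can be described. Among kept windows, 159 had their nearest gene within the 200 nt beyond the window, and these held 84 divergent reads in ESCs and 72 in NPCs. Among those left out, 171 were left out only for a gene within the last 200 nt of the window, and these held 185 and 175. Kept windows with a head-to-head neighbour within 5000 nt had divergent reads in 17.2% of 966 cases in ESCs and 14.3% in NPCs, those with a neighbour on the same strand in 16.0% and 14.4% of 1773, and those without any gene within 5000 nt in 12.9% and 11.2% of 13909. The genes of these windows had medians of 18, 16 and 5 exon reads in ESCs in the same order.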

How the data were processed

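Before deposit, the authors depleted the RNA of poly(A) transcripts (3 rounds) and of rRNA (1 round). They cut it into fragments with RNase III, ligated adaptors, selected products of 150 to 250 bp and amplified them by 15 cycles of PCR. The authors sequenced the strand-specific libraries on a SOLiD instrument. They mapped the reads to mm9 with Bowtie (version not given in the sources used here), keeping reads with several placements. They deposited, after filtering mitochondrial, ribosomal and repeat reads, a list of read positions with strand and a sequence of 48 nt for each library. Lines whose interval was shorter than the sequence, 3.77% for ESCs and 4.23% for NPCs, were counted as reads.

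Reads were counted in a window by their 5′ end, and in exons by an overlap of at least 1 base on the strand of the gene, using Python 3.11.15, NumPy 2.4.6 and SciPy 1.17.1. Counts were divided by the total of each library (RPM). Intervals are Poisson, Clopper-Pearson or conditional binomial for ratios, and counting was tested on simulated reads. A read was unique where its sequence occurred exactly 1 time in NCBIM37. Sequences and annotation came from the NCBIM37 genome and GENCODE M1. Windows were named for the most pooled reads, for the largest changes in either direction with at least 20 reads, for list members with at least 5 reads, and for reads without exon reads, and other names are marked as chosen after their values were seen. The windows, the gene lists and the tests were chosen with earlier results of these data known.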

Additional observations from a re-analysis of the deposited data

How the results depend on the processing

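The NPC to ESC log2 ratio of divergent reads stayed below 0 under every alternative run. It was -0.27 with windows of 2000 nt, -0.42 with full 48-nt placements only, -0.46 when scaled by reads outside the 10 largest clusters, -0.69 when scaled by the median of ratios over exons, and -0.56 for genes with exon RPM within 1.25-fold.

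The share of window reads on the divergent strand, in ESCs and NPCs respectively, was 50.7% and 45.2% with each start position counted as 1, 47.6% and 36.7% with reads of unique sequence, 29.1% and 21.2% in windows of 500 nt, 41.8% and 35.9% in windows of 2000 nt, 36.7% and 23.3% without the 100 nt next to the gene start, 39.4% and 31.98% with no other gene within 5000 nt, 37.0% and 28.5% without the 10 windows with most divergent reads, 30.4% and 19.4% with full placements, 44.6% and 41.5% without the windows of Gm10222 and Gm10925, and 49.4% and 44.5% for genes with similar exon RPM. For genes with at least 10 exon reads it was 20.7% in NPCs. It was lower in NPCs in each of these. Several of these settings, however, kept the window of Gm10925, with 1687 sense reads in ESCs and 3331 in NPCs. Without it, windows with no other gene within 5000 nt held 3782 divergent and 4155 sense reads in ESCs. They held 3031 and 3140 in NPCs, so the divergent share there was slightly higher in NPCs. The direction of this difference therefore depended on that window.

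The share of windows with a divergent read was 12.8% and 11.01% with unique sequence, 8.28% and 6.99% at 500 nt, 17.1% and 15.6% at 2000 nt, 12.9% and 11.2% with no gene within 5000 nt, 22.8% and 20.03% with at least 10 exon reads, 11.9% and 10.1% with full placements, and 27.6% and 23.6% for genes with similar exon RPM. It was 12.9% in ESCs without the 100 nt next to the gene start. It was 36.1% and 31.9% for genes with over 100 reads per 1000 nt of exon, in place of the bin of 100 to under 1000 reads, and 31.5% and 27.2% for CpG-rich windows at an observed-to-expected ratio of at least 0.75.

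The counts of windows more than 2-fold higher in ESCs and in NPCs were 18 and 3 with each start counted as 1, 10 and 4 at 500 nt, 75 and 17 at 2000 nt, 140 and 60 at a minimum of 5 reads, 7 and 4 at a minimum of 20, and 11 and 1 for genes with similar exon RPM. With 0.5 read added, 14 were higher in NPCs. ESC-higher windows outnumbered NPC-higher ones in each of these.

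The alternatives on full placements, on Gm10222 and Gm10925, on genes with similar exon RPM, on introns and on BC107364 and Gm10874 were chosen after seeing the data. The causes of these shifts were not tested. No paired analysis was possible because each cell type had 1 library, and for the same reason no library was left out. Depth limits what single windows can show, since all but 94 held fewer than 10 pooled reads.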
